A study of Mus musculus with 10 samples.

Results

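DN2a cells were compared with DN1 cells, the stage before them in early T cell development. The comparison used the 2 libraries labelled DN2a and the 2 labelled DN1, 4 of the 10 mouse RNA-seq libraries of the series. The change from DN1 to DN2a had the same direction in the libraries labelled 2012 and in those labelled 2013 for 7088 of the 12221 genes tested (58%). These are the genes looked at across the genome, and listed genes of T cell development are given beside them whatever their direction. All cells started as LSK cells, lineage-depleted mouse bone marrow cells sorted for SCA-1 and KIT, from independent isolates. DN1 and DN2a cells were grown on a high density of immobilized Delta1, a Notch ligand, with SCF, FLT-3 ligand, IL-6 and IL-11. DN1 cells were sorted as KIT++CD44+CD25- from cultures without IL-7, and DN2a cells as KIT++CD44+CD25+ from cultures that also received IL-7. The paper's methods for DNA accessibility state that the DN stages were harvested sequentially, so time in culture may differ too. The effects of stage, of IL-7 and of any difference in time therefore cannot be told apart. DN2b cells (KIT+CD44lo CD25+, with IL-7, 2 libraries) and the no Notch control (LSK cells on control IgG, 4 libraries) shared the model fit and are given for reference. The control libraries are labelled with a day and carry no year.

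In the thymus, DN1 cells still hold the potential to form myeloid and other lineages, and Notch signaling directs them toward the T lineage. At DN2a, cells display CD25, the alpha chain of the IL-2 receptor encoded by *Il2ra*, and begin to transcribe CD3 chains and other parts of the T cell receptor machinery, while the factor *Bcl11b* comes on around the passage to DN2b. IL-7 signals through JAK1, JAK3 and STAT5 to the survival gene *Bcl2* and to inhibitors of the SOCS family. Progenitor factors such as *Spi1* (PU.1), *Lmo2* and *Meis1* are turned down along this path.

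Reads counted on genes numbered 22635537 and 18489684 in the DN1 libraries of 2012 and 2013, and 27451369 and 13916162 in the DN2a libraries. Levels are in CPM, which relates the counts of a gene to its library's size after TMM normalization for differences in composition. A gene with 3 or fewer counts in a library was taken as at the floor, between 0.107 and 0.223 CPM in these 4 libraries, and floors cover counting error only. The DN1 library of 2012 stood apart. Its log2 CPM values correlated with those of the other DN1 library at r = 0.905 over 12221 genes, whereas the DN2a libraries correlated with each other at 0.971 and the DN1 library of 2013 correlated with them at 0.946 and 0.949. Genes are not independent replicates, and these values are a description.

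Between DN1 and DN2a, 24 genes rose and 25 fell by edgeR's quasi-likelihood test, at a threshold of 0.05 for p-values adjusted by Benjamini-Hochberg, which is 0.196% and 0.205% of the genes tested and 0.401% together. Without adjustment, 1328 genes (10.9%) had a p under 0.05. For all 49 genes the 2 DN2a libraries lay on one side of the 2 DN1 libraries, and the change was at least 2-fold in the same direction in both years. The same values chose these genes, so this describes the calls and does not replicate them. Of all genes tested, 20.9% lay wholly higher and 22.4% wholly lower in DN2a. At least a 2-fold change in both years was found for 2.45% higher and 5.25% lower. Among the genes that rose and were above the floor in DN1, the log2FC ranged from 2.18 (*Xbp1*) to 8.98 (*Khdc1a*), and among those that fell and were above the floor in DN2a from -5.60 (*Flt3*) to -1.36 (*Itpripl2*). *Themis* and *5830411N06Rik* were at the floor in DN1, and *S100a8* and *Csf1r* in DN2a, so that their fitted log2FC depends on the prior count. The median over all genes tested was -0.03. The call depends on every library of the comparison. Without the DN1 library of 2012, 0 genes rose and 3 fell (*Csf1r*, *Gcnt2* and *Ptgs1*), with 654 at an unadjusted p under 0.05, and without that of 2013, 44 rose and 186 fell. Without either DN2a library no gene passed, with 659 and 805 genes at an unadjusted p under 0.05, and DESeq2 on all libraries gave 125 higher (1.02%) and 349 lower (2.86%). The libraries outside the comparison matter through the shared spread, with 23 and 26 genes passing without each DN2b library and 30, 32, 22 and 25 without each control library in turn. With the label year as a replicate block in the fit of all 10 libraries, 38 genes rose (0.311%) and 64 fell (0.524%), 48 of the 49 among them. In that fit *Cd3g* no longer passed (adjusted p = 0.0535), whereas *Gimap4* (0.0275), *Nfil3* (0.0204), *Cxcr5* (0.0227), *Ms4a3* (0.0204), *Fcer1a* (0.0275) and *Ccr1* (0.0428) passed. Of these 6, *Cxcr5* and *Fcer1a* also passed with the block in the 6 DN libraries and the other 4 did not.

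Across the genome, 3417 genes (28%) were higher and 3671 (30%) lower in DN2a in both years. These counts use 1 library per stage and year and carry no test, and they became 2075 (17%) and 5104 (41.8%) with scaling to library size alone. At least a 2-fold difference in both years was found for 300 genes higher in DN2a (2.45%) and 641 lower (5.25%), and at least a 4-fold difference for 108 (0.884%) and 226 (1.85%). Every DN2a library lay above every DN1 library for 2559 genes (20.9%) and below for 2740 (22.4%). Among the genes higher in both years and outside the 24, *Tnfsf11*, which encodes RANKL, had 0.0371 and 2.04 CPM in DN1 and 42.7 and 49.7 CPM in DN2a (adjusted p = 0.0831). *Prelid2*, at 0.927 and 0.499 CPM in DN1 and 38.2 and 39.1 in DN2a (adjusted p = 0.291), had the largest such difference in the smaller of its 2 years. Among genes lower in both years and outside the 25, the largest differences in the smaller of the 2 years were those of *S100a9* (-12.12 and -7.52), a neutrophil calgranulin, and the mast cell proteases *Mcpt4* (-7.58 and -7.20) and *Mcpt1* (-7.11 and -6.99). These genes were picked after their values were seen. The years went opposite ways by at least 2-fold for 203 genes higher in 2012 and lower in 2013 (1.66%) and for 137 with the reverse (1.12%).

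**Figure D1:**
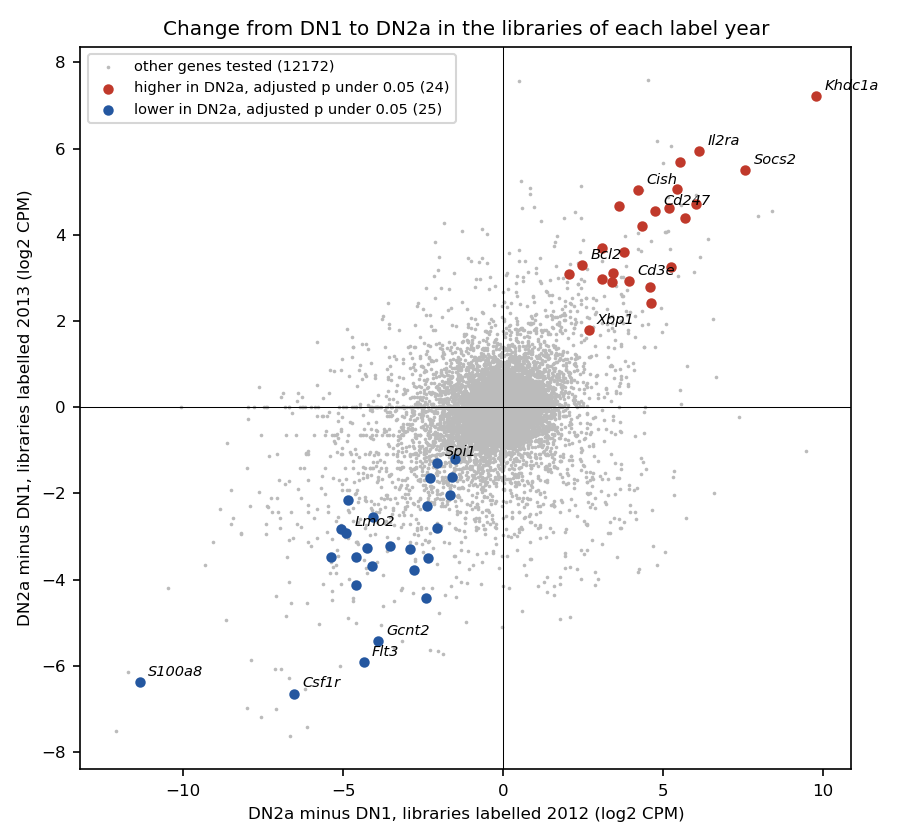
Difference in log2 CPM between the DN2a and the DN1 library labelled 2012 (x axis) and between those labelled 2013 (y axis), 1 point per gene. The 24 genes that rose (red) lie in the upper right quadrant and the 25 that fell (blue) in the lower left, and grey points are the other genes tested.

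The sorting antigens were examined first, since they define the stages. *Il2ra* had 23.2 and 18.9 CPM in DN1 and 1623 and 1171 CPM in DN2a, a log2FC of 6.05 ± 0.74 (SE, adjusted p = 0.0182). DN2a cells were gated on the CD25 that *Il2ra* encodes, so this rise checks the labels and is not an independent result. *Kit*, at 368 and 319 CPM in DN1 and 173 and 212 in DN2a, had a log2FC of -0.83 ± 0.63 (adjusted p = 0.691). *Cd44* had 116 and 159 CPM against 44.4 and 54.2, a log2FC of -1.48 ± 0.33 (adjusted p = 0.118). Both gates were set alike for KIT and CD44, and in both genes the DN2a libraries lay below the DN1 libraries without passing by edgeR, while *Cd44* passed under DESeq2 (adjusted p = 0.00171, within a range of 0.00171 to 0.792 over 19 other settings).

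Genes of the CD3 complex and of proximal T cell receptor signaling included 5 genes that rose and none that fell, a count that became 0 without either DN2b library, without the DN1 library of 2012 and without either DN2a library. Of 25 listed genes, 21 had enough counts to be tested, and the 5 are 23.8% of them, against 0.196% of all genes tested that rose. At least a 2-fold difference in both years was found for 13 genes, all higher in DN2a (61.9%, against 2.45% of all genes), and the median log2FC was 2.49. Of the invariant chains of the receptor complex, *Cd3e*, *Cd3g* and *Cd247* passed and *Cd3d* did not. *Cd3e* had 1.37 and 1.89 CPM in DN1 and 22.1 and 14.9 in DN2a (log2FC 3.50 ± 0.38, adjusted p = 0.037). *Cd3g* had 30.4 and 96.0 CPM against 744 and 516 (3.32 ± 0.56, adjusted p = 0.0499). *Cd247*, the zeta chain, had 0.705 and 0.548 CPM against 21.1 and 14.9 (4.83 ± 0.66, adjusted p = 0.0286). In each of these genes both DN2a libraries lay far above both DN1 libraries. *Cd3d* had 0.705 and 7.53 CPM in DN1, a wide spread, and 49.9 and 67.1 in DN2a, and its log2FC of 3.85 ± 1.13 did not pass (adjusted p = 0.250). *Cd3d* and *Cd3g* are transcribed in opposite directions from starts 1355 bases apart on chromosome 9, with *Cd3e* in the same cluster. The call of *Cd3e* held in 13 of 19 other settings (adjusted p from 8.65e-12 to 0.199), that of *Cd247* in 14 (7.52e-14 to 0.168) and that of *Cd3g* in 4 (1.56e-06 to 0.305).

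The promoters of *Il2ra*, the sorting antigen, and of *Cd3e* and *Cd247*, which rose, are printed as the 250 bases before the most upstream RefSeq start (GRCm38.p6), 5′ to 3′ on the strand of the gene, with CpG sites in capitals. CpG content is the property shown because it separates broadly used promoters from tissue-specific ones. *Il2ra* (chr2:11642542-11642791, plus strand) held 3 CpG sites, *Cd3e* (chr9:45009612-45009861, minus strand) 7 and *Cd247* (chr1:165788431-165788680, plus strand) 3. Their observed over expected CpG ratios were 0.284, 0.344 and 0.283, against a median of 0.379 (quartiles 0.165 and 0.725) over 27025 windows of the same length.
Il2ra: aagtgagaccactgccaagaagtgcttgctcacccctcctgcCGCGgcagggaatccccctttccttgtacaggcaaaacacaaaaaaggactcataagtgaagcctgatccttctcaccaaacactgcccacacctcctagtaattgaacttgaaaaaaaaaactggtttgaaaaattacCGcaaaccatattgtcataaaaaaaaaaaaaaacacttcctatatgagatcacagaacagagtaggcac
Cd3e: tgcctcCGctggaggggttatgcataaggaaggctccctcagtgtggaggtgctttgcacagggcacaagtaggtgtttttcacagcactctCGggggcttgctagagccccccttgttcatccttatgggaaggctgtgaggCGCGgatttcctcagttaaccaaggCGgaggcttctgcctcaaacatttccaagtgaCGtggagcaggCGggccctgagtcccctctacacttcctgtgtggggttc
Cd247: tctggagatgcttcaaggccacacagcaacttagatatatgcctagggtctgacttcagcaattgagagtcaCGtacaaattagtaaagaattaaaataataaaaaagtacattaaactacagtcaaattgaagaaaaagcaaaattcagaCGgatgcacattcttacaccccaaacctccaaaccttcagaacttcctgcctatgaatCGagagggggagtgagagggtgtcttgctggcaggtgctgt

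The adaptors and kinases near the receptor gave a mixed picture. *Trat1*, a transmembrane adaptor that binds the CD3 complex, had 5.08 and 9.42 CPM in DN1 and 54.2 and 71.4 in DN2a (log2FC 3.12 ± 0.50, adjusted p = 0.0459, held in 9 of 19 other settings). *Themis*, needed for selection of thymocytes, was at the floor in DN1 and had 3.76 and 4.60 CPM in DN2a, at least 32.1-fold higher (adjusted p = 0.0499, held in 5 of 19). *Lck*, the kinase that phosphorylates CD3 chains, had 33.2 and 76.2 CPM against 428 and 304, and its log2FC of 2.74 ± 0.67 did not pass (adjusted p = 0.156). *Thy1*, the pan-T cell surface protein, had 6.34 and 7.63 CPM against 159 and 112 (4.28 ± 1.20, adjusted p = 0.227), although both DN2a libraries lay far above both DN1 libraries. *Zap70* (0.97), *Lat* (0.80) and *Fyn* (-0.56) had smaller log2FC values that did not pass. *Ptcra*, the pre-TCR alpha chain, had 5.38 and 10.6 CPM in DN1 and 11.2 and 2.23 in DN2a, so it was higher in 2012 and lower in 2013. Under DESeq2, 12 of the 21 genes passed, all higher, against 1.02% of all genes.

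**Figure D2:**
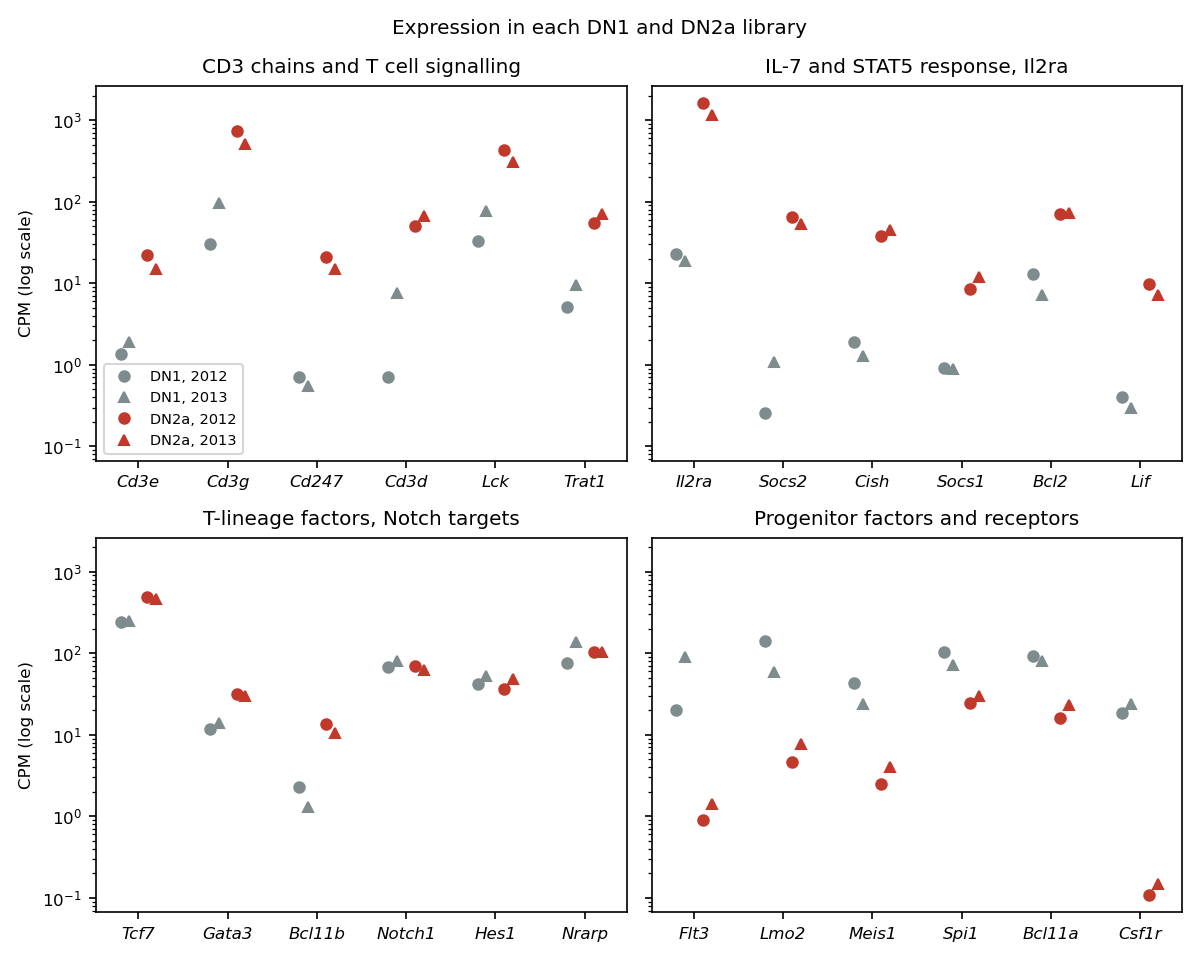
CPM on a log scale in each DN1 (grey) and DN2a (red) library for genes in 4 groups, with circles for 2012 and triangles for 2013. The CD3 and STAT5 response genes and *Il2ra* are separated between stages, the progenitor genes are separated the other way, and *Notch1*, *Hes1* and *Nrarp* overlap.

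Of 23 cytokine receptor and STAT5 response genes tested, 4 rose and none fell, or 17.4% against 0.196% of all genes tested that rose. The 4 were *Socs2*, *Cish*, *Bcl2* and *Il2ra*, of which *Il2ra* was fixed by the sort. In both years 8 of the 23 were higher and 7 lower (34.8% and 30.4%, beside 28% and 30% of all genes). The list's median log2FC was 0.17, which became -0.01 with scaling to library size alone. *Socs2*, a feedback inhibitor of cytokine receptors, had 0.260 and 1.10 CPM in DN1 and 65.8 and 53.4 in DN2a (log2FC 6.49 ± 0.73, adjusted p = 0.015). *Cish*, another SOCS family inhibitor induced by STAT5, had 1.93 and 1.30 CPM against 37.7 and 45.3 (4.67 ± 0.71, adjusted p = 0.0408). *Bcl2*, which protects lymphocytes from apoptosis, had 12.9 and 7.23 CPM against 71.2 and 72.0 (2.83 ± 0.36, adjusted p = 0.0204). In all 3 the 2 DN2a libraries were close to each other and the DN1 libraries lay well below. *Socs1* had 0.927 and 0.897 CPM against 8.56 and 12.0 (3.49 ± 0.75, adjusted p = 0.112), and *Bcl2l1*, a relative of *Bcl2*, had 11.6 and 13.7 against 36 and 31.6 (1.42 ± 0.41, adjusted p = 0.239). Over 19 other settings *Socs2* passed in 16, *Bcl2* in 14 and *Cish* in 11.

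The receptor and kinases of the same pathway did not pass the test. *Il7r*, the IL-7 receptor alpha chain, had 7.94 and 21.5 CPM in DN1 and 20.5 and 12.0 in DN2a, so the stages overlapped and its log2FC was 0.15 ± 0.89. *Il2rg*, the common gamma chain (-0.35), *Jak1* (-0.20), *Jak3* (-0.33), *Stat5a* (0.01) and *Stat5b* (0.04) had log2FC values close to 0. *Socs3*, a feedback inhibitor usually tied to STAT3, had a log2FC of -0.96, and *Mcl1*, another survival gene, of -0.29. DN2a cells were the ones given IL-7, and the share of the differences in *Socs2*, *Cish* and *Bcl2* that goes with the cytokine cannot be told apart from that of the stage.

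The promoters of *Cish* (chr9:107296409-107296658, plus strand) and *Bcl2* (chr1:106714291-106714540, minus strand) are shown in the same way, as those of 2 further genes that rose. *Cish* held 10 CpG sites (ratio 0.532) and *Bcl2* 36 (ratio 1.03), above the upper quartile of 0.725. The *Cish* window precedes the RefSeq start but lies inside the gene as GENCODE places it, from 107296026.
Cish: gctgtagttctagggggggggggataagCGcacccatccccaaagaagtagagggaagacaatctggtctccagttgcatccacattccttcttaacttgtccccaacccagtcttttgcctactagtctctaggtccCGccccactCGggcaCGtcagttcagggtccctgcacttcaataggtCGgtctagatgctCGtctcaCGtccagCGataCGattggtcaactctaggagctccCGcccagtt
Bcl2: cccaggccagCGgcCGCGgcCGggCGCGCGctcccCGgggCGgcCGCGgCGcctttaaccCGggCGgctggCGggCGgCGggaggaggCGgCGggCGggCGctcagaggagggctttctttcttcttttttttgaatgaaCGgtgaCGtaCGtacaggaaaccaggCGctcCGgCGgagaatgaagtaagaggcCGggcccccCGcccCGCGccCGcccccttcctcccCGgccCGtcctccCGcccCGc

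The 8 Gimap genes, GTPases that support lymphocyte survival and lie in one cluster, were all at least 2-fold higher in DN2a in both years (2.45% of all genes were), and none passed the test in the fit without the block. Their median log2FC was 3.14. *Gimap7*, at 1.56 and 1.45 CPM in DN1 and 14.1 and 20.8 in DN2a, came closest (log2FC 3.53 ± 0.56, adjusted p = 0.0831). *Gimap4* had 0.297 and 1.35 CPM against 7.05 and 18.2 (3.96 ± 1.08, adjusted p = 0.209), and *Gimap8* 0.593 and 0.449 against 3.15 and 12.4 (3.87 ± 0.92, adjusted p = 0.153). *Gimap3* had no counts in DN1 and 0.394 and 3.05 CPM in DN2a. The DN2a library of 2013 was the higher one in all 8 genes. The genes share a cluster and similar sequence, and they are not independent of each other. Under DESeq2, 6 of the 8 passed, all higher, against 1.02% of all genes.

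Other genes that rose included receptors and secreted factors. *Ctla4*, an inhibitory receptor of T cells, had 2.86 and 8.48 CPM in DN1 and 70.6 and 59.2 in DN2a (log2FC 3.53 ± 0.52, adjusted p = 0.038). It was the single gene to pass by edgeR among 14 costimulatory and checkpoint receptors (0.196% of all genes rose), and 4 passed by DESeq2, all higher (1.02%). The call of *Ctla4* held in 7 of 19 other settings, and none of the 14 passed when any control library was left out. At least a 2-fold higher level in both years was found for 7 of the 14 (2.45% of all genes), and the median log2FC was 0.62. *Pdcd1*, which encodes PD-1, had 0.0371 and 0.449 CPM against 5.55 and 4.38 (adjusted p = 0.265), and *Tnfrsf9* (4-1BB) had 0.445 and 0.0499 against 12.4 and 27.0 (adjusted p = 0.272). *Btla*, an inhibitory receptor, went the other way with a log2FC of -2.24. *Lif*, a cytokine of the IL-6 family, had 0.408 and 0.299 CPM in DN1 and 9.92 and 7.13 in DN2a (4.56 ± 0.54, adjusted p = 0.0161), and passed in 15 of 19 other settings.

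*Khdc1a*, a KH domain gene known from oocytes and embryos, had the largest rise among genes above 5 CPM. It had 0.111 and 0.399 CPM in DN1 and 177 and 72.7 in DN2a, a log2FC of 8.98 ± 0.85 (adjusted p = 0.0262). Its neighbors *Khdc1b* and *Khdc1c* had no counts in DN1 and between 1.41 and 2.94 CPM in DN2a, and did not pass (adjusted p = 0.137 and 0.111). The 3 paralogs are similar in sequence, and how reads were divided among them is uncertain. Among the 10 tested genes of the Khdc1 cluster and imprinted loci *Khdc1a* was the single one that passed by edgeR (0.196% of all genes rose) and 3 passed by DESeq2, all higher (1.02%), and the growth factor gene *Igf2* (-3.15) and the noncoding RNA *H19* (-2.40) had log2FC values below 0 that did not pass.

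The remaining large rises were in genes with varied roles. *C1qtnf1*, a secreted C1q/TNF-related protein, had 0.0742 and 0.249 CPM in DN1 and 8.31 and 6.98 in DN2a (log2FC 5.57 ± 0.61, adjusted p = 0.0148). *Fam169b* had 1.22 and 2.79 CPM against 85.1 and 75.8 (5.34 ± 0.76), and *Fam20a*, a pseudokinase of the secretory pathway, 0.890 and 1.79 against 35.2 and 46.1 (4.93 ± 0.54). A pair of scavenger receptor genes related in sequence and known from gamma delta T cells also rose, and the division of reads between them is uncertain. *Cd163l1* had 0.0742 and 0.349 CPM against 6.09 and 4.08 (4.63 ± 0.79, adjusted p = 0.0499, held in 5 of 19 other settings), and *5830411N06Rik* had none in DN1 and 4.01 and 4.53 CPM in DN2a, at least 32.7-fold higher (adjusted p = 0.0459). *Xbp1*, a transcription factor of the unfolded protein response, had 72.8 and 125 CPM in DN1 and 462 and 432 in DN2a (2.18 ± 0.34, adjusted p = 0.0459). *Sla2*, an adaptor that dampens receptor signaling, *Slfn2*, *Gbp6*, *Actr3b*, *1500009L16Rik* and *E030002O03Rik* completed the 24, with log2FC values between 2.52 and 4.40.

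None of 22 T-lineage transcription factors tested passed by edgeR in the fit of all libraries, which is near the share of 0.401% over all genes. With the replicate block in the 6 DN libraries 1 of the 22 rose, where 67 of 12221 genes passed. The list's median log2FC was 0.17, which became -0.03 with scaling to library size alone. *Tcf7* (TCF-1) was already abundant in DN1, at 238 and 250 CPM, and had 485 and 462 in DN2a (log2FC 0.96 ± 0.55, adjusted p = 0.575). *Gata3* had 11.8 and 13.8 CPM in DN1 and 32.0 and 30.3 in DN2a (1.28 ± 0.35, adjusted p = 0.216). *Bcl11b*, the commitment factor, had 2.26 and 1.30 CPM against 13.5 and 10.5 (2.75 ± 0.58, adjusted p = 0.102), and passed under DESeq2 (adjusted p = 0.000103) within a range of 0.000103 to 0.584 over 19 other settings. For these 3 factors both DN2a libraries were higher than both DN1 libraries, and the replicates of each stage lay close together. Over the list, 9 of 22 lay wholly higher in DN2a and 6 wholly lower, beside 20.9% and 22.4% of all genes. *Tox*, an HMG-box factor of T cell development, had 4.93 and 5.48 CPM against 14.4 and 23.0 (1.84 ± 0.77, adjusted p = 0.424). *Runx1* (-0.45), *Tcf3* (-0.44), *Ikzf1* (-0.12), *Ets1* (0.21) and *Tcf12* (0.55), factors used in many lymphoid cells, had log2FC values near 0. *Lef1* had at most 11 counts in these 4 libraries and was not tested.

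Of 18 Notch receptors and target genes tested, none passed between the stages by edgeR and 1 passed by DESeq2, lower in DN2a, beside 2.86% of all genes. Both stages grew on Delta1, and the median log2FC was -0.18. *Notch1* had 67.1 and 80.4 CPM in DN1 and 70.1 and 63.1 in DN2a (log2FC -0.15 ± 0.36). *Hes1*, a repressor transcribed in direct response to Notch, had 42.2 and 53.1 CPM against 36.9 and 48.4 (-0.16 ± 0.48). *Nrarp*, a feedback inhibitor, had 77.0 and 139 CPM against 102 and 102 (-0.08 ± 0.92), and *Dtx1* had 47.5 and 85.0 against 55.4 and 49.7 (-0.33 ± 0.63). In all 4 the stages overlapped, and the signs of *Hes1*, *Nrarp* and *Dtx1* turned when the DN1 library of 2013 was left out. Changes of the size of these SEs were not detectable with 2 libraries per stage. *Notch2*, at 39.1 and 36.9 CPM in DN1 and 17.1 and 17.2 in DN2a, was at least 2-fold lower in both years (-1.15 ± 0.29, adjusted p = 0.171) and passed under DESeq2 (adjusted p = 0.0181, within a range of 0.0181 to 0.854 over 19 other settings). *Notch3* had 5.19 and 3.14 CPM against 6.30 and 4.68, which overlapped. In the no Notch control *Hes1* ranged from 0.0560 to 0.305 CPM and *Nrarp* from 0.264 to 3.97.

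Of 12 genes of V(D)J recombination tested, 0 passed, which is near the share of 0.401% over all genes. *Rag1*, which with *Rag2* cuts the receptor loci, had 0.779 and 3.24 CPM in DN1 and 8.95 and 2.15 in DN2a, so it was higher in 2012 and lower in 2013. *Rag2* had 2.08 and 2.94 CPM against 7.23 and 2.60, with the same split between years. *Dntt*, the terminal transferase, had 3.93 and 5.34 CPM against 7.45 and 9.14 (log2FC 0.84 ± 0.63, adjusted p = 0.691). The list's median log2FC was 0.55 and no member was 2-fold higher in both years, beside 2.45% of all genes.

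**Figure D3:**
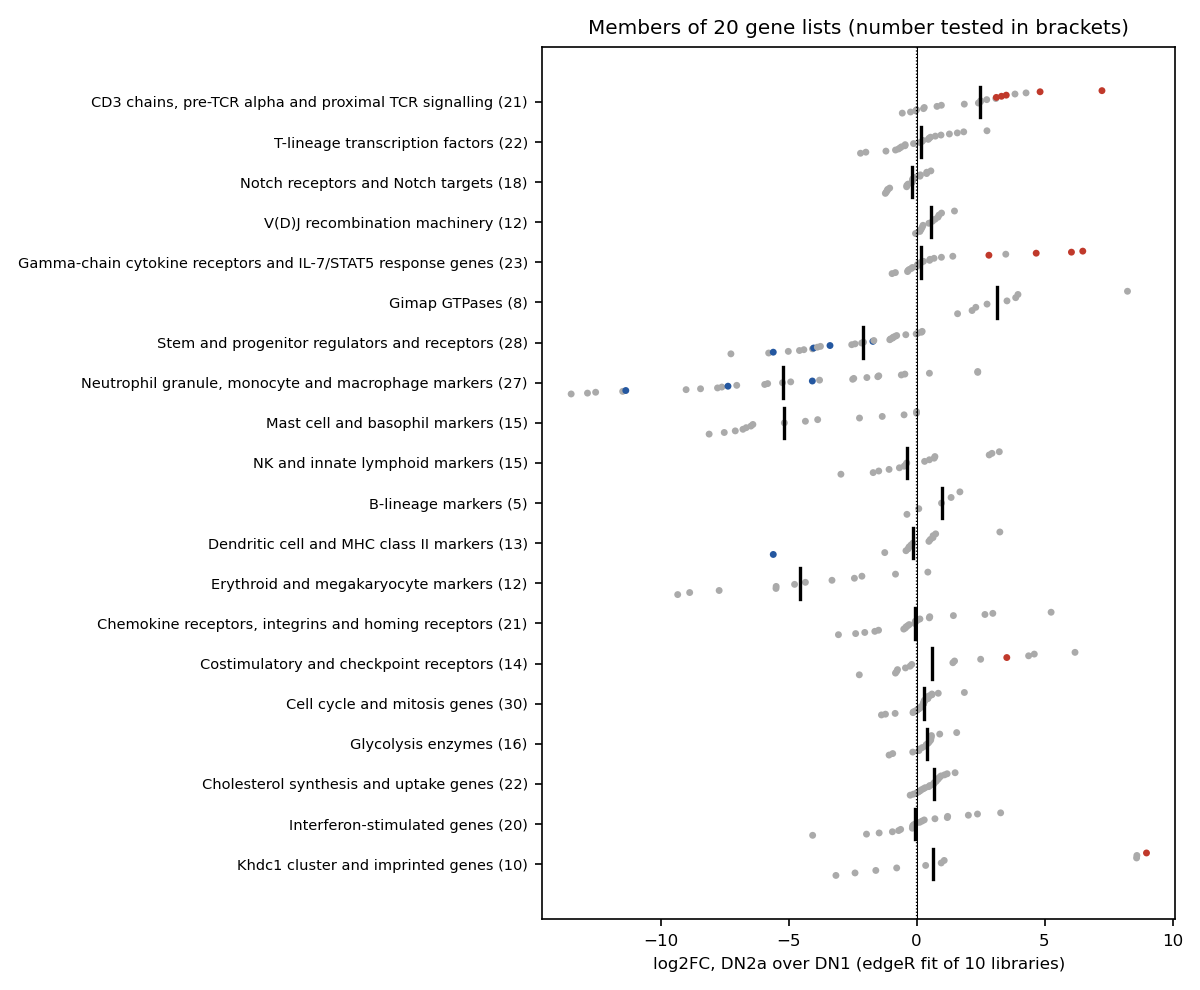
The log2FC of DN2a over DN1 in the edgeR fit for each tested member of 20 gene lists, with the list's median as a vertical bar. Red points rose and blue points fell at an adjusted p under 0.05, and for genes at the floor in one stage the fitted log2FC depends on the prior count.

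Of 28 genes of stem and progenitor cells tested, 4 fell and none rose, or 14.3% against 0.205% of all genes tested that fell. The count became 0 without any 1 control library, without the DN1 library of 2012, without either DN2a library and in the 6 DN libraries alone, and 6 without the DN1 library of 2013. At least a 2-fold lower level in both years was found for 16 (57.1%, against 5.25% of all genes), and the median log2FC was -2.11. *Flt3*, the receptor for FLT-3 ligand, had 20.2 and 90.1 CPM in DN1 and 0.895 and 1.41 in DN2a (log2FC -5.60 ± 0.89, adjusted p = 0.0459). *Lmo2*, a bridging factor of stem cell transcription complexes, had 140 and 59.1 CPM against 4.58 and 7.80 (-4.02 ± 0.67, adjusted p = 0.0494). *Meis1*, a homeobox factor, had 43.8 and 23.8 CPM against 2.51 and 4.01 (-3.38 ± 0.53, adjusted p = 0.0459). *Spi1* had 104 and 72.5 CPM against 24.5 and 29.7 (-1.71 ± 0.27, adjusted p = 0.0459). In each, the lower DN1 library stayed above the higher DN2a library, and the fall of *Spi1* was the shallowest of the 4. The calls held in 10, 8, 9 and 7 of 19 other settings in that order.

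Other progenitor genes had large differences without passing the test. *Bcl11a* had 92.3 and 80.3 CPM in DN1 and 16.1 and 22.9 in DN2a (log2FC -2.14 ± 0.50, adjusted p = 0.139), and *Mef2c* 43.6 and 69.0 against 4.73 and 3.56 (-3.75 ± 0.82, adjusted p = 0.117). *Hoxa9*, a homeobox gene of stem cells, had 3.0 and 15.1 CPM in DN1 and was at the floor in DN2a, at least 54.8-fold lower on the mean of 2 unequal libraries (adjusted p = 0.135). *Gata2* had 168 and 15.6 CPM in DN1 and 3.62 and 2.01 in DN2a (-5.01 ± 1.24, adjusted p = 0.163), and most of the DN1 signal came from the library of 2012. *Lyl1*, a partner of *Lmo2*, had a log2FC of 0.22, and *Erg* (-0.01) and *Fli1* (0.06), ETS factors of blood stem cells, were close to 0. Under DESeq2, 13 of the 28 genes passed, all lower, against 2.86% of all genes.

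The promoters of *Flt3* (chr5:147400490-147400739, minus strand) and *Meis1* (chr11:19018970-19019219, minus strand) are printed as examples from genes that fell. Each held 13 CpG sites, with ratios of 0.597 and 0.595. Ratios varied widely in both directions of change. Among genes that fell, *Siglece* had 0.053 and *Ckap4* 1.02, and among genes that rose, *Themis* had 0.071 and *Bcl2* 1.03.
Flt3: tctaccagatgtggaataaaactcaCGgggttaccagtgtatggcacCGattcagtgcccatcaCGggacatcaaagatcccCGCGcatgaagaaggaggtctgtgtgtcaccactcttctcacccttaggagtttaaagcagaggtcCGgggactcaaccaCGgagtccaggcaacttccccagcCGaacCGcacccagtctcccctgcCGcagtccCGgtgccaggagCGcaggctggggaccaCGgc
Meis1: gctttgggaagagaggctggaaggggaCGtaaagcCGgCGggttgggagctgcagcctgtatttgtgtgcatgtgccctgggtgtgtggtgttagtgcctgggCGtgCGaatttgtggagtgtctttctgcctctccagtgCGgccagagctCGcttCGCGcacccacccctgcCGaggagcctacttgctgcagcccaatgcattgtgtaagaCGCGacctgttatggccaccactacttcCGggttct
Windows could be matched for 19 of the 24 genes that rose (79.2%), 17 of the 25 that fell (68.0%) and 9760 of the 12221 tested (79.9%). Because this is under 80% of each set, a comparison of CpG content or motifs between the sets is void and was not made.

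*Csf1r*, the macrophage colony-stimulating factor receptor, had 18.3 and 23.8 CPM in DN1 and was at the floor in DN2a, at 0.107 and 0.149 CPM (3 and 2 counts). It was at least 128-fold lower in DN2a (adjusted p = 0.014), with both DN1 libraries alike, and its call held in 17 of 19 other settings, including without the DN1 library of 2012. *S100a8*, a neutrophil calgranulin, had 517 and 13.6 CPM in DN1 and was at the floor in DN2a, at least 1606-fold lower on the mean of 2 very unequal libraries (adjusted p = 0.0494, held in 7 of 19). *Cebpd*, a C/EBP factor of myeloid cells, had 6.42 and 5.78 CPM against 0.251 and 0.520 (log2FC -4.07 ± 0.69, adjusted p = 0.0499, held in 8 of 19). These 3 were the genes that fell among 27 neutrophil, monocyte and macrophage markers tested (11.1%, against 0.205% of all genes), of which 16 were at least 2-fold lower in both years (59.3%, against 5.25%). The number that fell was 16 under DESeq2 (2.86% of all genes), 9 with the replicate block (0.524%), 9 without a filter on low counts (0.286%), 1 without the DN1 library of 2012 (0.0245%) and 17 without that of 2013 (1.52%). In the fit of the 4 DN1 and DN2a libraries 1 of these markers fell, where 22 of 12221 genes passed. In the 6 DN libraries 1 fell, where 32 passed, and with the replicate block in them 5 fell, where 67 passed. Leaving out each control library in turn gave 2, 1, 1 and 1, where 30, 32, 22 and 25 genes passed. Without each DN2b library 2 fell, where 23 and 26 passed. *Ms4a3*, of granulocyte and monocyte progenitors, had 50.8 and 4.94 CPM in DN1 and was at the floor in DN2a (adjusted p = 0.0564), and *Mpo*, myeloperoxidase, had 343 and 24.1 against 2.22 and 4.38 (adjusted p = 0.135).

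Among the other genes that fell, *Mpeg1*, the macrophage perforin, had 10.2 and 4.89 CPM in DN1 and 0.788 and 0.446 in DN2a (log2FC -3.55 ± 0.56), and *Trem1*, an activating receptor of neutrophils and monocytes, had 3.23 and 5.19 against 0.394 and 0.297 (-3.54 ± 0.59). *Ptgs1*, cyclooxygenase 1, had 26.0 and 10.9 CPM against 0.537 and 0.891 (-4.74 ± 0.48, adjusted p = 0.0148), and *Prkcb*, protein kinase C beta, had 71.4 and 13.5 against 2.36 and 2.97 (-4.00 ± 0.67). *Gcnt2*, the glycosyltransferase that makes the I antigen, had 19.1 and 35.8 CPM against 1.18 and 0.743 (-4.79 ± 0.51, adjusted p = 0.0148) and passed in 16 of 19 other settings. *Gm7694* (-4.60), *Fam174b* (-4.39), *Ctdspl* (-4.25) and *Pja1* (-4.05), a ubiquitin ligase, were the other genes among the 10 largest falls above 5 CPM. *Gramd3*, *Nuak2*, *Siglece*, *P2ry2*, *Ckap4*, *Dennd5a*, *Sorl1* and *Itpripl2* also fell, with log2FC values between -3.51 and -1.36. Without the DN1 library of 2012, *Csf1r*, *Gcnt2* and *Ptgs1* still passed, each with an adjusted p of 0.0197.

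Summed over the 27 tested neutrophil and monocyte markers, the level was 3185 and 206 CPM in DN1 and 45.9 and 98.0 in DN2a, and the median log2FC was -5.23 (-4.79 with genes at the floor set to their bound and -2.47 without the DN1 library of 2012). Over 15 mast cell and basophil markers it was 10603 and 3735 CPM against 1198 and 1566, with a median log2FC of -5.16 (-4.34 at the bound and -3.27 without that library). No mast cell marker passed by edgeR in the fit of all libraries without the replicate block. With the block in all 10 libraries 2 fell (0.524% of all genes), and without a filter on low counts 3 fell (0.286%). In the fit of the 4 DN1 and DN2a libraries 1 fell, where 22 of 12221 genes passed, and in the 6 DN libraries 1 fell, where 32 passed. By DESeq2 8 of 15 passed, all lower, against 2.86% of all genes. At least a 2-fold lower level in both years was found for 9 of the 15, against 5.25% of all genes. *Mcpt1*, a mast cell protease, had 6269 and 1732 CPM in DN1 and 45.4 and 13.5 in DN2a (log2FC -7.08 ± 1.84, adjusted p = 0.182), *Mcpt4* 801 and 133 against 4.08 and 0.817, and *Fcer1a*, the IgE receptor alpha chain, 268 and 62.1 against 2.58 and 0.223 (adjusted p = 0.0809). *Cpa3*, mast cell carboxypeptidase, by contrast had 987 and 333 CPM against 371 and 571, which overlapped. The separate counts of the Mcpt proteases are uncertain, since they are similar in sequence. In bulk RNA, fewer cells of a type and less RNA per cell cannot be told apart, and the part of these cells in the genes that fell was not tested.

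**Figure D4:**
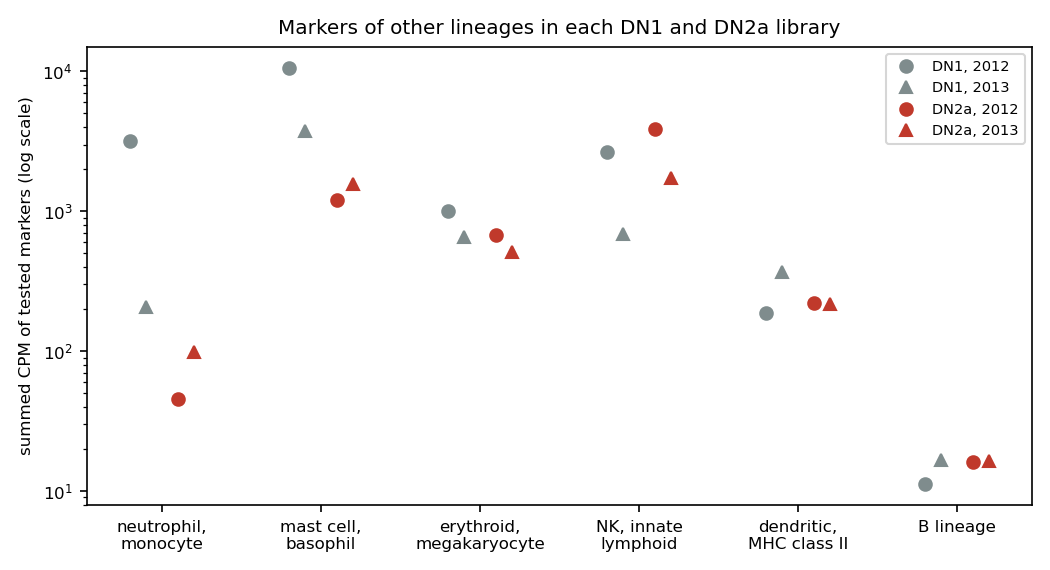
Summed CPM (log scale) of the tested markers of 6 other lineages in each DN1 (grey) and DN2a (red) library, with circles for 2012 and triangles for 2013. The DN1 library of 2012 had the highest sum of neutrophil and monocyte and of mast cell and basophil markers, 3185 and 10603 CPM.

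Erythroid and megakaryocyte markers depended on the same library. The sum over 12 tested was 1009.9 and 650.0 CPM in DN1 and 673 and 515 in DN2a. No marker passed by edgeR in the fit of all libraries and 5 by DESeq2, all lower (2.86% of all genes). In the fit of the 4 DN1 and DN2a libraries 1 fell, where 22 of 12221 genes passed. The median log2FC of -4.55 (-3.67 with genes at the floor set to their bound) became 0 without the DN1 library of 2012. *Klf1*, the erythroid factor, had 51.6 and 0.598 CPM in DN1 and 0.501 and 0.668 in DN2a, and *Gata1* had 79.7 and 1.89 against 1.32 and 2.75. Of 15 NK and innate lymphoid markers tested, none passed by edgeR in the fit of all libraries without the replicate block. With the block in all 10 libraries 1 was higher (0.311% of all genes), and without a filter on low counts 1 was higher (0.249%). DESeq2 called 2 higher and 1 lower, beside 1.02% and 2.86% of all genes. The 15 markers summed to 2638 and 691 CPM in DN1 and 3844 and 1739 in DN2a. Their median log2FC of -0.38 became 0.31 without the DN1 library of 2012. *Gzma*, granzyme A, had 331 and 203 CPM in DN1 and 3256 and 862 in DN2a (log2FC 2.95 ± 0.73, adjusted p = 0.166), whereas *Gzmb* had 1939.8 and 230 against 340 and 440. *Nfil3*, a factor needed for NK cells, had 1.15 and 1.45 CPM against 6.62 and 12.0 (2.84 ± 0.51, adjusted p = 0.0607). Dendritic cell and MHC class II markers (13 tested) held *Flt3* as the single gene that passed by edgeR (0.205% of all genes fell), while DESeq2 called 1 higher and 1 lower. Their sum was 186 and 368 CPM against 223 and 219, and their median log2FC of -0.14 became 1.30 without the DN1 library of 2012. B-lineage markers stayed low, at 11.2 and 16.6 CPM against 16.2 and 16.5 over 5 tested, none of which passed, and *Cd79a* and *Pax5* were too low to be tested.

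Homing receptors, metabolism, cell cycle and interferon genes gave no calls by edgeR without the replicate block, while DESeq2 called 2 homing receptors higher and 2 lower, 1 cell cycle gene higher and 1 interferon gene lower, beside 1.02% of all genes higher and 2.86% lower. Among 21 chemokine receptors, integrins and homing receptors, *Cxcr5* had 0.0371 and 0.598 CPM in DN1 and 5.87 and 17.7 in DN2a (log2FC 5.26 ± 1.26, adjusted p = 0.154), *Ccr4* 0.927 and 0.449 against 6.09 and 4.90, and *Ccr1* 13.2 and 21.7 against 0.967 and 3.42 (-3.05 ± 0.80). Among 22 cholesterol genes the median log2FC was 0.66, and 16 were higher in both years, such as *Idi1* (1.20) and *Fdps* (1.09), enzymes of isoprenoid synthesis. Among 16 glycolysis genes the median was 0.42 with 10 higher in both years, and among 30 cell cycle genes it was 0.27 with 16 higher in both years. *Cdkn1a* (p21), a brake on the cell cycle, had 33.8 and 12.9 CPM in DN1 and 86.4 and 84.4 in DN2a (1.87 ± 0.43, adjusted p = 0.139). Among 20 interferon-stimulated genes the median was -0.07 (0.05 with genes at the floor set to their bound), and *Oas2*, an RNA sensor at 1.45 and 1.25 CPM against 0.215 and 0.520, was one of 2 at least 2-fold lower in both years, beside 5.25% of all genes. These medians stand beside -0.03 over all genes tested, of which 28% were higher in both years. With scaling to library size alone, 11 cholesterol, 8 glycolysis and 9 cell cycle genes were higher in both years, beside 17% of all genes, and the medians were 0.45, 0.22 and 0.06.

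The genes that rose at DN2a were set beside the next stage and the control. In DN2b, which shares the IL-7 condition, 23 of the 24 had a higher fitted level than in DN2a, with a median difference of 1.0 on the log2 scale, but no gene of the 12221 passed between DN2b and DN2a by edgeR (335 at an unadjusted p under 0.05, and 29 called by DESeq2). *Cd3e* went on to 94.8 and 111 CPM in DN2b, *Cd247* to 61.2 and 51.9, and *5830411N06Rik* to 35.9 and 93.0. *Il2ra* and *Socs2* had DN2b levels nearer those of DN2a, at 2177 and 1729 CPM and at 102 and 101. *E030002O03Rik*, at 28.4 and 22.2 CPM in DN2b, was the single gene of the 24 that was lower there than in DN2a. Of the 25 genes that fell, 14 were lower still in DN2b, with a median difference of -0.38, while *Flt3* (1.27 and 4.78 CPM), *Meis1* (3.40 and 8.04) and *Gcnt2* (1.33 and 2.63) were not. The shares of all genes higher or lower in DN2b were not worked out, so neither count is read as a trait of these genes.

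In the no Notch control, 16 of the 24 genes that rose had a mean under 1 CPM, and all 25 genes that fell were higher than in DN2a. The shares of all genes at such levels in the control were not worked out. The control differs from DN2a in ligand and IL-7 as well as in the cells sorted, and 5559 of 12221 genes (45.5%) passed between DN2a and the control. Its libraries carry a day label and no year, so time in culture and handling may differ too. *Csf1r* ranged from 591 to 1304 CPM in the 4 control libraries, *S100a8* from 3989 to 12015 and *Spi1* from 347 to 465. *Meis1*, by contrast, had 3.18 to 3.98 CPM in the control, near its DN2a level, and *Flt3* 4.26 to 7.47. Among the genes that rose, *Slfn2* had 333 to 702 CPM in the control against 47.3 and 52.1 in DN2a, and *Xbp1* 261 to 425.

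**Figure D5:**
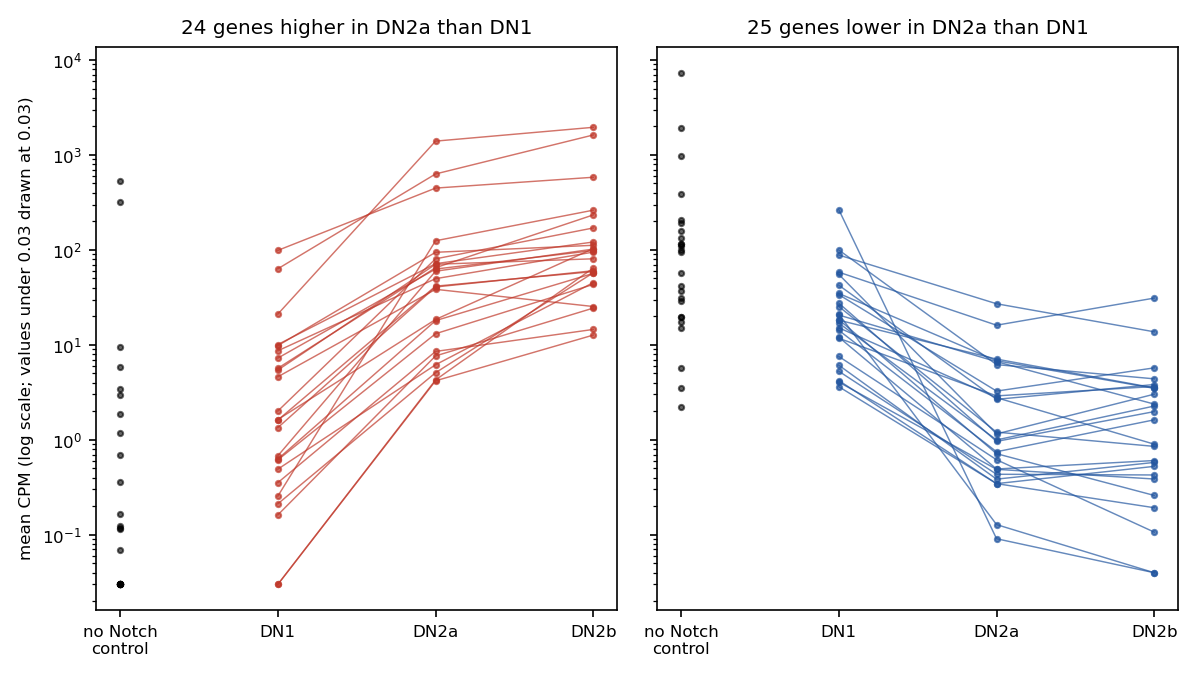
Mean CPM (log scale) of the 24 genes that rose (left) and the 25 that fell (right) from DN1 to DN2a, with 1 line per gene across DN1, DN2a and DN2b (2 libraries each) and black points for the no Notch control (4 libraries). The DN1 and DN2a values chose these genes, 23 of the 24 were higher in DN2b than in DN2a, and means under 0.03 CPM are drawn at 0.03.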

How the data were processed

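Per the paper's methods, the authors dropped low-quality reads and mapped 36 bases of read 1 to the mm10 genome (TopHat). They tallied reads by htseq-count (intersection-strict) and deposited the raw counts for each gene symbol. The submitters' processing notes name TopHat2 2.12, Cufflinks 2.2.1 and HTSeq 0.6.1p1. The annotation and strand setting of the counting are not given in the sources used here, so overlapping and antisense genes are uncertain. The 5 summary lines after the genes, 23.9% to 33.1% of reads in the DN1 and DN2a libraries, were left out, and 27 symbols had been converted to dates. Reads aligned to several places (17.2% to 25.7%) were assigned to no gene.

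Of 24062 genes, the 12221 that reached 1 CPM in 2 or more of 10 libraries were kept. One model with the 3 DN stages and the control as 4 groups was fitted with edgeR 4.0.16 (quasi-likelihood test, TMM, prior count 0.125, common dispersion 0.189) in R 4.3.3. P-values were adjusted by Benjamini-Hochberg over all genes tested, at a threshold of 0.05. The SE was computed as the absolute log2FC over the root of the F statistic. Differences within a year are log2 CPM with a prior count of 2. Folds against a group at the floor of 3 counts in every library are lower bounds. The methods state independent LSK isolates for replicates. On simulated counts for DN2a over DN1, with 200 of 12221 genes changed by a log2FC of 3, edgeR recovered 128 (64%) with 4 false calls and DESeq2 1.42.0 recovered 165 (82.5%) with 57 false calls. Apart from those 200 genes, the simulation gave all groups the same baseline, with a spread taken from edgeR's own estimates. No library stood apart in it, so these rates need not hold for the real counts.

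The comparison, the gene lists and the genes described were chosen with earlier results of these data known. Named genes were a core list, the 10 largest changes in each direction with an adjusted p under 0.05 and a mean of at least 5 CPM, list members that passed, and up to 4 members of lists without one. Other named genes were chosen after their values were seen. Some listed genes are not reported here. Gene positions are from GENCODE vM21 (mm10) and promoter windows from RefSeq. The alternatives were DESeq2, library size scaling, other filters, fewer libraries in the fit, a replicate block, summary lines kept, each library left out, another prior count and a 4-fold threshold. Leaving out each DN2b and control library, and the direction of list members with library size scaling, were checks chosen after seeing the data. Python 3.11.15, pandas 2.3.3 and matplotlib 3.10.9 made summaries and figures.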

Additional observations from a re-analysis of the deposited data

Results flagged for a closer look

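The direction of change from DN1 to DN2a differed between the years for some genes, and these differences were not tested, since each year holds 1 library per stage. At least a 2-fold difference upward in 2012 and downward in 2013 was found for 203 of 12221 genes (1.66%), and the opposite for 137 (1.12%). Among the core genes, the log2 difference of DN2a from DN1 was 3.38 in 2012 and -0.57 in 2013 for *Rag1*, 1.76 and -0.17 for *Rag2*, and 1.05 and -2.20 for *Ptcra*. It was 1.36 and -0.83 for *Il7r*, 0.22 and -0.77 for *Dtx1*, 0.41 and -0.44 for *Nrarp*, and 0.062 and -0.35 for *Notch1*. *Lyl1* went the other way, at -0.14 and 0.67.

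In 7 of the 49 genes that rose or fell, 1 of the 4 no Notch libraries lay far from the other 3 by Dixon's test, which flags about 1 in 20 groups by chance. *Cd247* had 0.294 CPM in that library and 0.0461 to 0.0610 in the others. *5830411N06Rik* (0.0923 CPM), *Trat1* (0.0587), *Ctla4* (0.0461), *Themis* (0.0461) and *Cd163l1* (0.0305) had counts in 1 control library and none in the other 3. For these 5 genes the flag follows from the zeros alone, and the rate of 1 in 20 does not apply. *Dennd5a*, which fell from DN1 to DN2a, had 159 CPM in that library and 123 to 128 in the others.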

How the results depend on the processing

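DESeq2 with its size factors called 125 higher and 349 lower, or 26.4% higher against 49.0% in the edgeR fit. No filter on low counts gave 47 and 54. Fits of the 4 DN1 and DN2a libraries or the 6 DN libraries alone gave 6 and 4 lower genes, with 72.7% and 87.5% of calls higher. Leaving out each library in turn gave 0 to 44 higher and 0 to 186 lower genes. Of the 49 genes, 49 passed under DESeq2, 48 without a filter, 38 with library size alone, 12 in the 4 libraries, 18 in the 6 DN libraries, and 0 to 41 with a DN1 or DN2a library left out. Scaling to library size alone (43 calls, 39.5% higher) shifted the median log2FC of all genes by -0.20. The replicate numbers follow the year in the labels. With the year as a replicate block, 38 rose and 64 fell in all 10 libraries (48 of the 49 passing), and 44 rose and 23 fell in the 6 DN libraries (20 of the 49). Same-year DN1 and DN2a libraries deviated from their stage means together at r = 0.0842 over genes, DN1 and DN2b at 0.287, and DN2a and DN2b at 0.270. The methods describe the stages as sorted from each LSK replicate, but the labelled dates of DN1 and DN2a differ within a year and no source ties a library to an isolate, so the pairing is uncertain and both fits are given. Genes higher and lower in both years numbered 2075 and 5104 with library size alone. A 4-fold threshold in both years left 108 higher and 226 lower genes. The log2FC of *Il7r* changed sign with scaling to library size alone (-0.0073). Leaving out each library in turn gave a log2FC of both signs for *Il7r* (-0.40 to 1.04), *Hes1* (-0.37 to 0.036), *Nrarp* (-0.44 to 0.41), *Dtx1* (-0.69 to 0.15), *Ptcra* (-1.82 to 0.49) and *Lyl1* (-0.10 to 0.63). The libraries whose absence turned the sign were DN1 replicate 2 (all but *Il7r*), DN2a replicate 1 (*Hes1* and *Il7r*), DN1 replicate 1 (*Il7r*) and DN2a replicate 2 (*Ptcra*). The cause was not tested. Genes at or under 0.107 to 0.223 CPM in a DN1 or DN2a library were at the limit of its depth.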
